A study of Mus musculus with 47 samples.

Results

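The mitochondrial ribosomal protein genes were taken as all genes in both deposited count tables whose symbol begins with Mrpl or Mrps and a number, with pseudogenes left out. This gave 77 of 24391 genes, 48 with an Mrpl symbol and 29 with an Mrps symbol. C57Bl6 mice, with no age or sex in the labels, gave 47 RNA libraries of 3 tissues: brown fat, white fat and the gastrocnemius, a calf muscle. NTB mice were tumour-free, with no antibody named. IgG1 mice carried HT1080 tumours, from a human fibrosarcoma cell line, and received an IgG1 antibody, so IgG1 against NTB joins the tumour with that antibody. The third group had these tumours too, and was given the antibody 3P10, which binds the GDF15 receptor GFRAL, at the same 3 mg/kg weekly from day 0, and all tissues were taken on day 21. There were 5 libraries a group in each tissue, except for 6 of NTB and 6 of 3P10 in brown fat. The immune state of the hosts of the human tumour cells is not stated, and nothing in the labels says that the libraries of a group came from separate animals or whether animals were pooled, so p-values measure the spread between these samples, which may be technical.

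The mitochondrial ribosome makes the few proteins that mitochondrial DNA encodes, all of them subunits of the respiratory chain and the ATP synthase. Its proteins are encoded in the nucleus, made in the cytosol and imported, and are assembled with mitochondrial ribosomal RNA into a large and a small subunit. Some have bacterial counterparts, and others were added in the mitochondrial lineage. Brown fat and muscle are tissues rich in mitochondria, while white fat holds fewer. Of the 77 genes, 50 encode large-subunit proteins, including Mrps30 and Mrps18a despite their symbols, and 26 encode small-subunit proteins. The last, Mrps36, is now known as a component of the oxoglutarate dehydrogenase complex.

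Promoters are shown for 4 genes on which the results below turn: Mrps22 and Mrps18a, which moved in opposite directions in brown fat, Mrpl3, which was called in both fats, and Mrpl45, called in white fat. Each is the 250 bases before the RefSeq start site in build GRCm38.p6, which is not the mm9 build of the counts, written 5′ to 3′ on the gene's strand. Capitals mark matches, on either strand, to the ETS core CCGGAAG, the SP1 core GGGCGG or the CCAAT box CCAAT. The windows are chr9:98601680-98601929 on the minus strand, and chr17:46110754-46111003, chr9:105053018-105053267 and chr11:97315466-97315715 on the plus strand.
Mrps22: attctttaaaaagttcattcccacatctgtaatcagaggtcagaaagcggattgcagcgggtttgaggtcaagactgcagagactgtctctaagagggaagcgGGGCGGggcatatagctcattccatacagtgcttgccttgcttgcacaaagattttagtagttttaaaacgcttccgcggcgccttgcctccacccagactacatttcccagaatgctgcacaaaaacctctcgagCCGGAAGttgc
Mrps18a: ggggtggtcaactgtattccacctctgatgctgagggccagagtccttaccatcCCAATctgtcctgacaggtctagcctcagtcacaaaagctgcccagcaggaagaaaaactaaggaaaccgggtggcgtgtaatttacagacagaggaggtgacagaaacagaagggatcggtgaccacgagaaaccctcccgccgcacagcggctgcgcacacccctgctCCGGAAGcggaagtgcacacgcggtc
Mrpl3: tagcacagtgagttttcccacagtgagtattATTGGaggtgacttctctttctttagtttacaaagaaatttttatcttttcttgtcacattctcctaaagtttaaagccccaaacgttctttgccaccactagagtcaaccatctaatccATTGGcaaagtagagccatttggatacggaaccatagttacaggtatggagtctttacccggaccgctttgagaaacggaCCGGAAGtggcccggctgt
Mrpl45: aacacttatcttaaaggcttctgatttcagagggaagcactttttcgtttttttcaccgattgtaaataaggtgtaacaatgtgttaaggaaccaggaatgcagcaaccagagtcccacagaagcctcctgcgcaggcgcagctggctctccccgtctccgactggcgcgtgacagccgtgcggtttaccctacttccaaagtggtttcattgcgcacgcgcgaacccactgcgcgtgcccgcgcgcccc
The ETS core lay close to the start site in Mrps22, Mrps18a and Mrpl3. The Mrpl45 window held none of the 6 motifs searched. Among the 68 genes of the family with a RefSeq promoter, 17 held the ETS core, 25% against 10.1% of the 17215 genes with promoters of the same length, a gene with several promoters counting once. The core of the NRF1 site, GCATGCG, was in 8 of the 68, 11.8% against 4.32%, and the YY1 core AAGATGG in 6, 8.82% against 4.91%. The SP1 core was in 48.5% against 46.2%, the CCAAT box in 36.8% against 39.0%, and TATAAA in 7.35% against 13.2%. These are matches of letters, searched on both strands, and were given no test. The genes lay on 17 chromosomes, and 23 of the 77 (29.9%) had a neighbour starting in the opposite direction within 1000 bases, against 8.2% of 19891 protein-coding genes in the tables.

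The tissues were read at different depths. A brown fat library held 0.799 to 2.46 M counts (M, 1e6), a muscle library 24.8 to 33.5 M and a white fat library 18.6 to 80.7 M. All 77 genes had counts in every white fat and muscle library, and 75 to 77 did in a brown fat library. Of these, 74 passed the filter on low counts in brown fat. Mrpl23 had 12 counts over the 17 brown fat libraries and Mrps18b had 16, each in 10 libraries, and Mrps36 had 96 counts. In white fat and muscle all 77 passed. Levels below are CPM, counts per M counts of the library after TMM scaling within the tissue. Brown fat was read at the 3′ end with another kit, so its levels are not set against those of the other tissues. Adipoq, the adipocyte hormone, averaged 1700 CPM in NTB brown fat, 24.3 in muscle and 2896 in white fat, and Ucp1, the uncoupling protein of brown fat, 3833, 11 and 331. Acta1, skeletal muscle actin, averaged 25067 CPM in NTB muscle, 317 in brown fat and 183 in white fat. The tissues thus carried their defining markers, with muscle transcripts present in both fats. These values identify the tissues and are not a comparison of levels between kits.

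In NTB brown fat, where the 3′ reads count transcripts without regard to length, Mrpl12 was highest at 343 ± 24.6 CPM (SD, n = 6), followed by Mrpl18 at 326 ± 15.6 and Mrps2 at 273 ± 9.93. Mrpl12 forms part of the flexible stalk of the large subunit and is also known to bind the mitochondrial RNA polymerase. Mrpl12 and Mrpl18 differed by less than the SD of Mrpl12. In white fat and muscle, levels per kilobase of exon were compared. Mrpl12 stood at 158 ± 23.9, Mrpl33 at 153 ± 30.0 and Mrpl42 at 149 ± 18.3 CPM per kilobase in NTB white fat, an order within the spread. In NTB muscle Mrpl42, a protein with no bacterial counterpart, led at 356 ± 145 CPM per kilobase, with Mrpl33 at 188 ± 124 and Mrpl12 at 165 ± 43.2 (n = 5 each). In muscle 1 NTB library stood apart, as described below. The lowest were Mrpl23, Mrps18b and Mrps36 in brown fat. Per kilobase the lowest were Mrpl23 (2.11 CPM per kilobase), Mrpl47 (3.6) and Mrps33 (3.78) in white fat. In muscle they were Mrps17 (2.78), Mrps33 (2.92) and Mrpl19 (3.75). These orders depend on exon lengths from GENCODE on GRCm38, not the build of the counts, with 6003 bases for Mrps17 and 5000 for Mrpl19. By CPM without division by length, Mrpl23, Mrps36 and Mrps33 were lowest in both white fat and muscle.

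**Figure D1:**
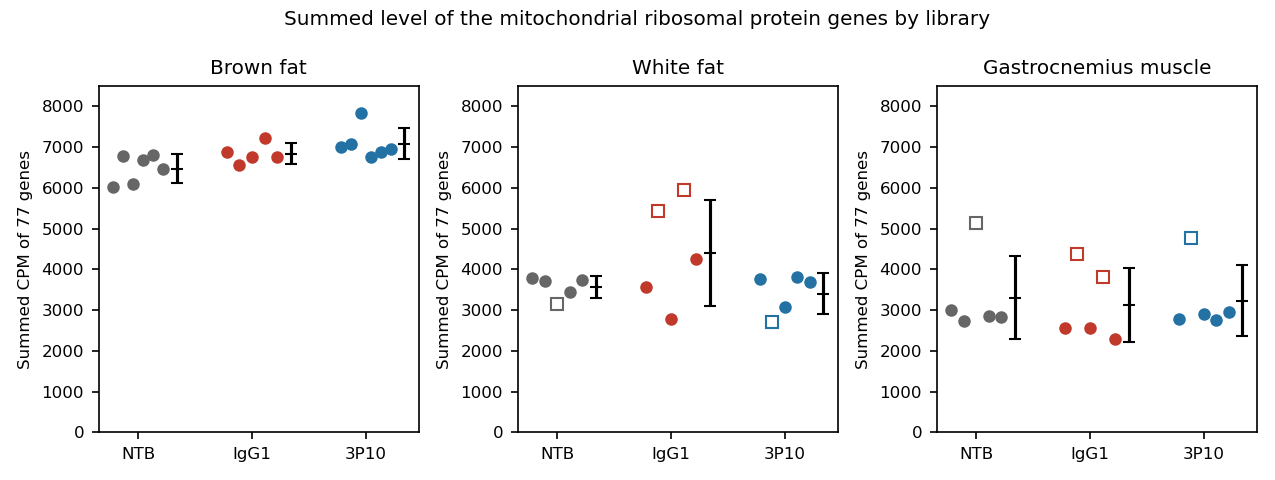
Summed level of the 77 genes in each library, in CPM, by tissue and group; points are libraries and bars are mean and SD. Open squares are white fat and muscle libraries whose titles carry a number of 14 or higher: in muscle all 4 lie above the other 11, and in white fat the IgG1 pair, replicates 2 and 4, are the highest.

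In brown fat single genes rose and fell between 3P10 and IgG1. The summed level averaged 6474 ± 346 CPM in NTB, 6839 ± 251 CPM in IgG1 and 7084 ± 379 CPM in 3P10 (SD). It was 6011 to 6800 CPM in NTB (median 6580) and 6766 to 7826 CPM in 3P10 (median 6985). In IgG1 the 5 libraries stood at 6872, 6552, 6767, 7236 and 6768 CPM. The highest value, 7826 CPM, was 3P10 replicate 3, and the next in its group was 7068. The 3 groups overlapped in part. Titles number these libraries by group, and that order cannot be told apart from the treatment.

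Between 3P10 and IgG1 in brown fat, 8 of 74 genes were higher and 5 lower at an adjusted p under 0.05 in edgeR's quasi-likelihood test, against 11.6% of the 8711 genes tested, 6.05% higher and 5.58% lower. The median log2 fold change of the 74 was 0.06, beside -0.01 over all genes, and 49 were above 0. Of 49 large-subunit genes 6 were higher and 3 lower, and of 25 small-subunit genes 2 and 2. Groups did not overlap for 11 genes, 7 higher and 4 lower, against 6.29% of all genes.

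Mrpl36, a small zinc-binding protein of the large subunit, showed the largest rise. It stood at 25.8, 19, 15.8, 38.4 and 30.3 CPM in the IgG1 libraries and at 44.9 to 59.7 CPM in the 6 3P10 libraries (median 52.0). Its log2 fold change was 0.98, SE 0.20, adjusted p = 0.00254. All 3P10 libraries lay above all IgG1 libraries and also above all 6 NTB libraries, which ran from 18.1 to 36.3 CPM (median 31.1), and against NTB the log2 fold change was 0.83, adjusted p = 0.0140. In the annotation Mrpl36 overlaps exons of Ndufs6 on the other strand, and Ndufs6 showed a log2 fold change of -0.02, adjusted p = 0.936, between 3P10 and IgG1.

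Mrpl39, Mrpl38 and Mrpl53, proteins of the large subunit with no bacterial counterpart, rose in the same comparison. Mrpl39 stood at 68.4, 57.9, 64.2, 56.3 and 60.6 CPM in IgG1 and at 78.4 to 111 CPM in 3P10 (median 104), log2 fold change 0.71, SE 0.14, adjusted p = 0.00208. Its IgG1 and 3P10 libraries did not overlap, but its NTB libraries spanned both, from 61.7 to 123 CPM (median 79.7). Mrpl38 stood at 25.8, 27.1, 19.2, 35.7 and 22.9 CPM in IgG1 and at 34.6 to 47.5 CPM in 3P10 (median 44.2), log2 fold change 0.68, SE 0.16, adjusted p = 0.00989. Here the highest IgG1 library lay above the lowest 3P10 library. Mrpl53 stood at 176, 148, 209, 239 and 203 CPM in IgG1 and at 243 to 357 CPM in 3P10 (median 305), log2 fold change 0.61, SE 0.14, adjusted p = 0.00745, with no overlap. NTB libraries held 20.6 to 35.7 CPM of Mrpl38 (median 29) and 154 to 268 CPM of Mrpl53 (median 217), which overlapped the 3P10 libraries for both genes. Against NTB the log2 fold changes were 0.51 and 0.48, adjusted p = 0.0483 and 0.0384, and these calls were lost under 14 and 8 of 20 alternatives.

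Mrpl3, a core protein of the large subunit, rose with 3P10 against both other groups. It stood at 95.3, 66.0, 68.7, 63.4 and 85.7 CPM in IgG1, at 61.5 to 83.1 CPM in NTB (median 73.6) and at 90.2 to 116 CPM in 3P10 (median 98.6). All 3P10 libraries lay above all NTB libraries, and 1 IgG1 library reached into the 3P10 range. The log2 fold change was 0.44, SE 0.12, adjusted p = 0.0171 against IgG1 and 0.49, SE 0.11, adjusted p = 0.0160 against NTB. Mrps30, a large-subunit protein despite its symbol, was called at 0.32, adjusted p = 0.0462, and was no longer called under 15 of 19 alternatives. It falls outside the naming rule and was named after its values were seen.

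In the small subunit, Mrps22 and Mrps6 rose. Mrps22 is a mitochondria-specific protein whose human gene is mutated in inherited respiratory chain disease. It stood at 58.3, 45.2, 51.8, 44.7 and 52.5 CPM in IgG1 and at 60.7 to 85.8 CPM in 3P10 (median 68.0), with no overlap, log2 fold change 0.52, SE 0.13, adjusted p = 0.0138. NTB libraries held 39.9 to 68.1 CPM of Mrps22 (median 51.6). Mrps6, which has a bacterial counterpart, stood at 86.4, 90.4, 69.9, 81.3 and 66.5 CPM in IgG1 and at 107 to 144 CPM in 3P10 (median 121), log2 fold change 0.63, SE 0.14, adjusted p = 0.00601. Its NTB libraries ran from 71.9 to 131 CPM (median 96.5) and overlapped both groups. Mrps6 shares exons on the same strand with Slc5a3, a myo-inositol transporter gene, which moved in the same direction by 0.79, SE 0.17, adjusted p = 0.00509, after -0.90, adjusted p = 0.00970 in IgG1 against NTB. Reads of the shared exons cannot be told apart between Mrps6 and Slc5a3, and the Mrps6 value is uncertain for that reason.

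The clearest fall in brown fat was in Mrps18a, one of a set of related proteins and the member placed in the large subunit. It stood at 78.5, 94.9, 103, 77.7 and 87.9 CPM in IgG1, at 42.2 to 60.6 CPM in 3P10 (median 52.5) and at 49.1 to 78.1 CPM in NTB (median 60.0). Every IgG1 library was above every 3P10 library, and the NTB libraries overlapped both. The log2 fold change was -0.79, SE 0.13, adjusted p = 0.000769 for 3P10 against IgG1, and 0.50, SE 0.13, adjusted p = 0.0395 for IgG1 against NTB. Both comparisons share the IgG1 libraries, and 3P10 against NTB gave -0.29, adjusted p = 0.188.

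Mrps34, a small-subunit protein whose human gene is mutated in Leigh syndrome, fell as well. It stood at 139, 152, 138, 153 and 149 CPM in IgG1 and at 83.5 to 134 CPM in 3P10 (median 107), log2 fold change -0.44, SE 0.12, adjusted p = 0.0169. The groups did not overlap, and the NTB libraries, at 91.1 to 131 CPM (median 113), all lay below the IgG1 libraries, log2 fold change 0.38, adjusted p = 0.0831 in that comparison. The other falls with 3P10 were Mrpl28 at -0.48, Mrps26 at -0.41 and Mrpl12 at -0.33. Mrpl12 averaged 419 ± 28.3 CPM in IgG1 (n = 5), 332 ± 40.3 CPM in 3P10 and 343 ± 24.6 CPM in NTB (n = 6 each). The highest 3P10 library, replicate 3, lay above the lowest IgG1 library. The panel genes Mrps12, Mrps16, Mrps18c, Mrps5, Mrpl10, Mrpl11, Mrpl33 and Mrpl44, none of them called here, had log2 fold changes from -0.07 (Mrps5) to 0.30 (Mrpl44).

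**Figure D2:**
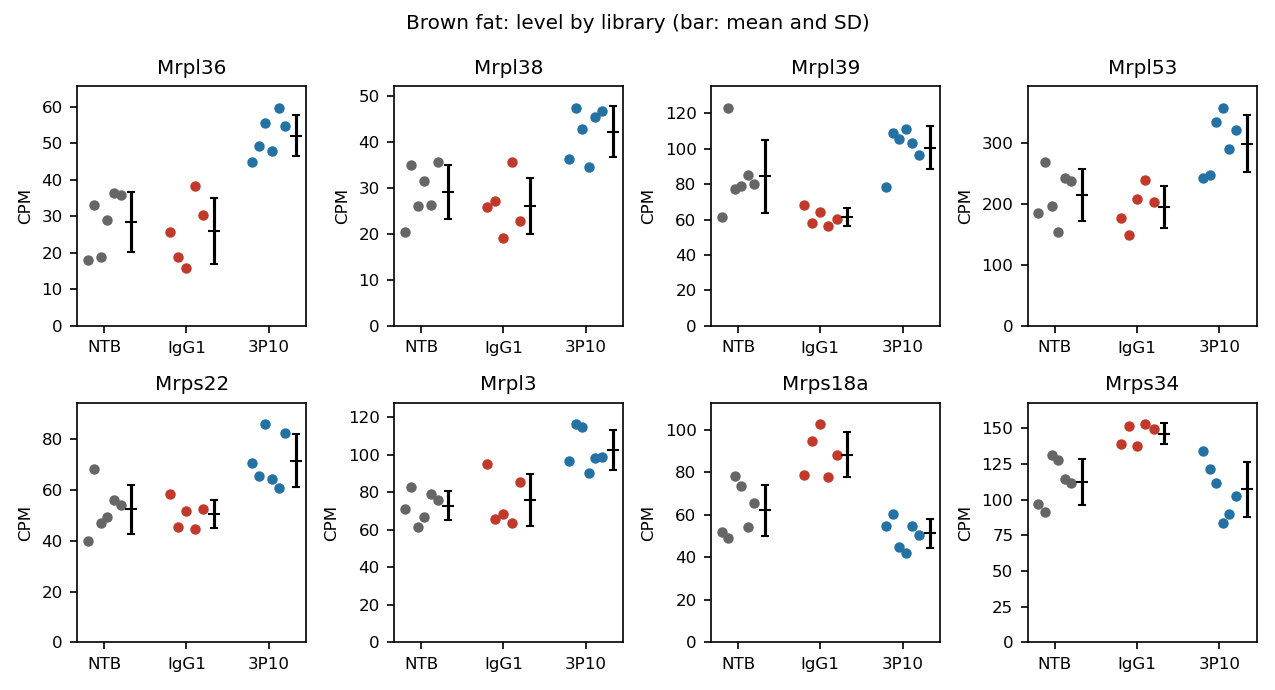
Level in brown fat, in CPM, of 8 genes in each library by group, with mean and SD. Mrpl36 in 3P10 (44.9 to 59.7 CPM) lies above every IgG1 and NTB library, while Mrps18a and Mrps34 are highest in IgG1.

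IgG1 against NTB in brown fat gave 2 genes higher and none lower of 74, against 2.97% of all genes, 1.86% higher. By edgeR 17 had an unadjusted p under 0.05, and DESeq2 called 5. The shares over all genes for these counts are not given here, so they are not read as a result about the family. The calls were Mrps18a, given above, and Mrps27, a small-subunit protein with pentatricopeptide repeats. Mrps27 stood at 109, 74.1, 80.0, 92.9 and 75.4 CPM in IgG1 and at 51.0 to 69.1 CPM in NTB (median 63.9), with no overlap, log2 fold change 0.46, SE 0.12, adjusted p = 0.0347. In 3P10 it stayed at 71.2 to 86.7 CPM (median 77), above every NTB library, with a log2 fold change of -0.15, adjusted p = 0.428 against IgG1. Leaving out any 1 of IgG1 replicates 1, 3, 4 and 5 or NTB replicates 5 and 6 left 0 of the 74 called, and NTB replicate 1, 2 or 3 left 1. Groups did not overlap for 5 genes, against 2.54% of all genes: Mrpl12, Mrpl47, Mrps26, Mrps27 and Mrps34 were higher in every IgG1 library.

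3P10 against NTB gave 9 genes higher and none lower, against 5.75% of all genes, 3.03% higher and 2.72% lower. The median log2 fold change was 0.12, and 56 of 74 were above 0. Beside Mrpl36, Mrpl38, Mrpl3, Mrpl53 and Mrps22 (0.45), these were Mrpl57 at 0.68, Mrpl4 at 0.63, Mrpl1 at 0.41 and Mrps23 at 0.35. Mrpl3 and Mrpl36 kept their calls under all 20 alternatives, and the other 7 lost them under 2 (Mrpl57) to 14 (Mrpl1, Mrpl38 and Mrps23). Groups did not overlap for 5 genes, all higher, against 3.01% of all genes. The count fell from 9 to 2 without 3P10 replicate 3, the library with the highest sum, or without NTB replicate 4, to 3 without 3P10 replicate 6 or NTB replicate 1, to 4 without NTB replicate 3 and to 5 without 3P10 replicate 4 or NTB replicate 6. It was also 6 without 3P10 replicate 5. The thermogenic adipocyte markers, which include Ucp1 and Cidea, summed to 9716 to 13192 CPM in 3P10, 8908 to 10343 in IgG1 and 8449 to 10651 in NTB, with the highest sum also in 3P10 replicate 3. Of the 9 tested, 4 were higher and 2 lower in 3P10 against IgG1, so the list did not move as one. From IgG1 to 3P10 the mean of Ucp1 went from 2883 to 4781 CPM and Cidea from 2551 to 3552. Dio2 went from 1559 to 428 CPM, Elovl3 from 200 to 133, Kng2 from 84.7 to 56.0 and Ppargc1a from 160 to 145. Skeletal muscle markers summed to 36.9 to 4918 CPM in 3P10 and 341 to 4468 in IgG1, with 0 of 15 called. With a muscle score as a term, 14 members were called for 3P10 against IgG1. The part of thermogenic markers in these results was not tested. Less RNA per cell and fewer cells of a type cannot be told apart in these bulk samples.

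**Figure D3:**
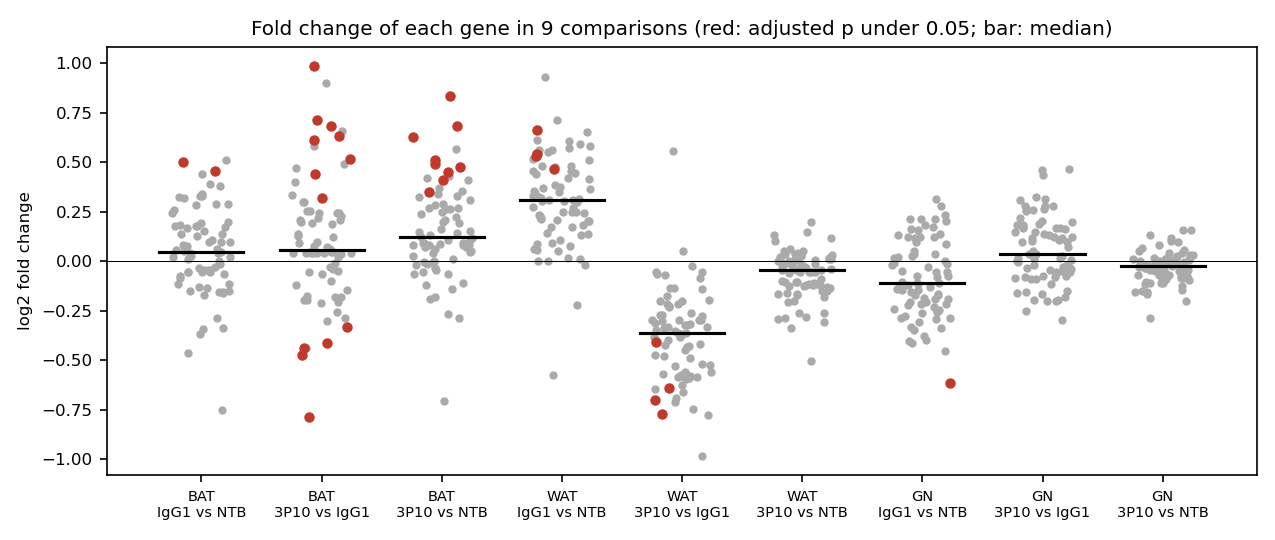
log2 fold change of each tested gene (points) in 9 comparisons, with the median as a bar and genes at an adjusted p under 0.05 in red; horizontal scatter has no meaning. In brown fat (BAT) red points lie on both sides of 0, in white fat (WAT) the medians are 0.31 for IgG1 against NTB and -0.36 for 3P10 against IgG1, and in muscle (GN) 1 gene is red.

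In white fat most of the family had a fold above 0 in IgG1 against NTB, with few single calls. The median log2 fold change was 0.31 beside -0.01 over all genes, and 72 of 77 genes were above 0. At the threshold, 4 were higher and none lower, against 8.64% of all genes, 4.09% higher and 4.55% lower. For 3P10 against IgG1 the median was -0.36, 2 of 77 were above 0, and 4 were lower, against 7.42% of all genes, 3.96% higher and 3.46% lower. These comparisons share the IgG1 libraries. For 3P10 against NTB the median was -0.04 and edgeR called 0 of 77, against 0% of all genes, with 0 at an unadjusted p under 0.05 and 0 called by DESeq2. No groups separated, against 0.847% of all genes.

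A pair of IgG1 libraries, replicates 2 and 4, stood highest. Replicate 4 was also the deepest white fat library, at 80.7 M counts, while the next deepest, NTB replicate 3, held 34.4 M. Replicate 2 held 25.1 M, and the part of depth in these levels was not tested. Summed levels were 3577, 5434, 2784, 5947 and 4260 CPM in IgG1 replicates 1 to 5, against 3794, 3704, 3160, 3435 and 3733 CPM in NTB and 3762, 2699, 3069, 3814 and 3690 CPM in 3P10. IgG1 replicate 4 was above the highest NTB library for 73 of 77 genes, replicate 2 for 67 and replicate 5 for 48, while replicate 1 was so for 17 and replicate 3 for 2. Replicate 3 was below the lowest NTB library for 53 genes. Without replicates 2 and 4, the median was -0.00 for IgG1 against NTB and -0.07 for 3P10 against IgG1, and 0 of 77 genes were called in either, against 0.636% and 0.103% of all genes. Without replicate 3 the counts called were instead 24 and 36, in the same order, while the calls over all genes rose as well, from 1245 to 2354 and from 1068 to 2304. Leaving out IgG1 replicate 2 or 4, or NTB replicate 1 or 2, left 0 called in IgG1 against NTB, and IgG1 replicate 5 or NTB replicate 3 or 4 left 1. In 3P10 against IgG1, IgG1 replicate 2 or 4 or 3P10 replicate 1 or 3 left 0, and IgG1 replicate 5 or 3P10 replicate 2 or 4 left 1. Without IgG1 replicate 1 the counts were 12 and 11.

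Several other marker lists moved with these libraries. Thermogenic adipocyte markers summed to 5191 and 5329 CPM in IgG1 replicates 2 and 4 and to 148 to 1484 CPM in the other 13 white fat libraries. Ucp1 was highest there, up to 3281 CPM. Keratinocyte markers summed to 46.0 and 814 CPM, against 1.82 to 4.41 CPM in the others. The mammary epithelium list summed to 152 and 190 CPM, against 1.63 to 26.4 CPM. It was high through Krt8, Krt18 and Epcam, which averaged 18.4, 43.0 and 10.6 CPM in IgG1. Csn3 averaged 0.0849 CPM and Wap 0 CPM in IgG1, and Csn2, a milk protein gene, 0 CPM in all 3 groups. In IgG1 against NTB, 0 of 9 thermogenic, 1 of 2 keratinocyte and 0 of 3 mammary markers tested were called. The same pair had the lowest sums of white fat for fibroblast markers (744 and 614 CPM), adipocyte markers (41609 and 40150 CPM) and macrophage markers (199 and 150 CPM). Fibroblast markers were lower in all 5 IgG1 libraries, at 614 to 1750 CPM, than in NTB, at 2620 to 4072 CPM, with 4 of 6 called lower, and stood at 1523 to 3113 CPM in 3P10. Genes of respiratory complex I, which the mitochondrial ribosome serves, summed to 12921 and 15261 CPM in the same pair and to 4200 to 8997 CPM elsewhere. The part of these cell types in the level of the family was not tested.

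**Figure D4:**
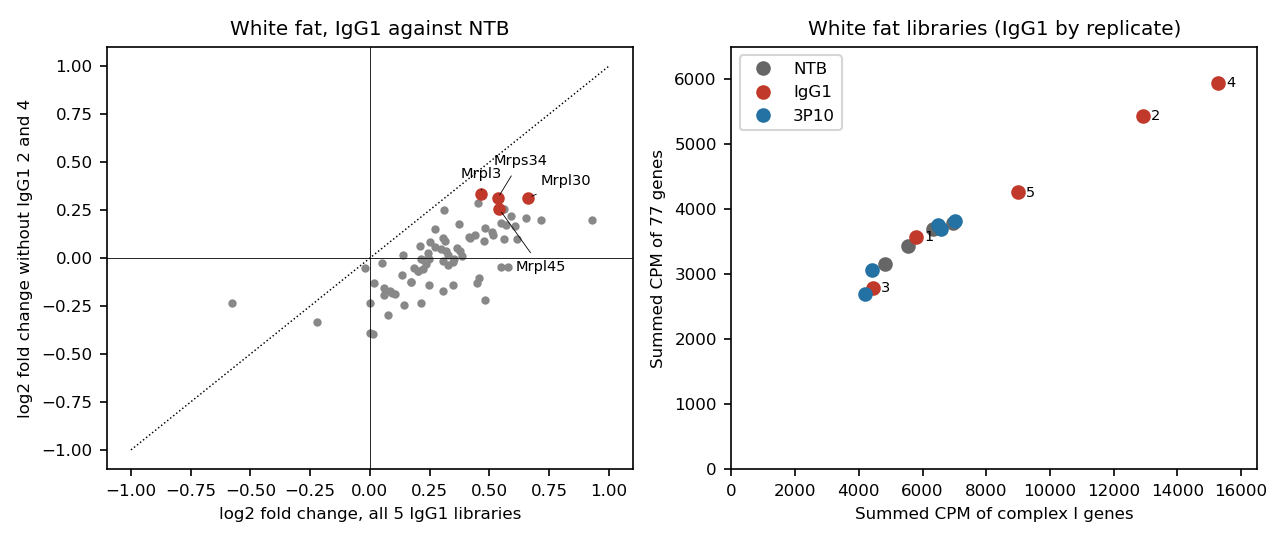
Left, log2 fold change of each gene in white fat, IgG1 against NTB, with all 5 IgG1 libraries (x axis) and without replicates 2 and 4 (y axis), the dotted line marking equal values; the 4 called genes are in red and nearly all points lie below the line. Right, summed CPM of the 77 genes against summed CPM of complex I genes in the 15 white fat libraries, where IgG1 replicates 2 and 4 lie highest on both axes.

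Mrpl45, which lines the exit tunnel of the large subunit and tethers it to the inner membrane, was the member whose white fat groups separated. It stood at 43.5, 71.6, 44.8, 72.8 and 52.1 CPM in IgG1, at 38.9, 39.5, 33.6, 41.2 and 42.9 CPM in NTB and at 36.4, 36.8, 30.9, 40.7 and 38.0 CPM in 3P10. Every IgG1 library lay above every NTB and 3P10 library, although the lowest IgG1 value was within 1 CPM of the highest NTB value. Among all genes tested, 8.85% did not overlap between IgG1 and NTB and 5.65% between 3P10 and IgG1. The log2 fold change was 0.54, SE 0.15, adjusted p = 0.0359 for IgG1 against NTB and -0.64, SE 0.15, adjusted p = 0.0244 for 3P10 against IgG1. Without IgG1 replicates 2 and 4 these were 0.26, adjusted p = 0.249, and -0.36, adjusted p = 0.158.

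Mrpl3 and Mrpl30, both core proteins of the large subunit, passed in both of these comparisons as well. Mrpl3 stood at 35.1, 48.5, 41.7, 51.3 and 43.4 CPM in IgG1, at 31.4, 30.8, 28.9, 31 and 37.4 CPM in NTB and at 34.9, 29.1, 33.9, 32.3 and 36.1 CPM in 3P10. Its log2 fold changes were 0.47, SE 0.11, adjusted p = 0.0216 and -0.41, SE 0.11, adjusted p = 0.0385. Only the lowest IgG1 library reached into the range of the other groups. Without IgG1 replicates 2 and 4 Mrpl3 gave 0.33, adjusted p = 0.153 and -0.27, adjusted p = 0.263. Mrpl30 stood at 61.1, 122, 63.8, 129 and 99.0 CPM in IgG1 and at 53.4 to 68.2 CPM in NTB (median 59.4), log2 fold change 0.66, SE 0.20, adjusted p = 0.0499. In 3P10 it ran from 42.3 to 70.5 CPM (median 58.5), log2 fold change -0.70, SE 0.20, adjusted p = 0.0452 against IgG1. Its IgG1 replicates 1 and 3 lay within the NTB range.

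Mrps34 was called in IgG1 against NTB alone, at 47.6, 58.8, 37.6, 66.0 and 46.9 CPM against 41.1, 36.5, 27.7, 33.2 and 39.1 CPM, log2 fold change 0.53, SE 0.16, adjusted p = 0.0457. Mrps18a was called in 3P10 against IgG1, at 25.9, 22.2, 21.5, 27.3 and 22.4 CPM against 24.8, 57, 24, 56.1 and 41.3 CPM, log2 fold change -0.77, SE 0.22, adjusted p = 0.0456. Its IgG1 replicates 2, 4 and 5 were high and replicates 1 and 3 stood among the 3P10 values. In IgG1 against NTB its log2 fold change in white fat was 0.61, adjusted p = 0.0842. Mrps18a was thus lower in 3P10 than in IgG1 in both fats, with groups that separated in brown fat and overlapped in white fat. Its white fat call was lost under 14 of 19 alternatives, with log2 fold changes from -0.93 to -0.31 and adjusted p up to 0.433. Nearly all genes of the family shared its direction in that white fat comparison.

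In muscle, 1 of 77 genes was lower in IgG1 than in NTB and none higher, against 5.6% of all genes, 2.68% higher and 2.92% lower. The median log2 fold change was -0.11, and 25 genes were above 0. The called gene was Mrpl19, a large-subunit protein with a bacterial counterpart. It stood at 12.8, 12, 12.2, 10.6 and 13.4 CPM in IgG1, at 21.5, 19.1, 16.4, 17.4 and 19.3 CPM in NTB and at 16.7, 14.9, 18.4, 17.8 and 16.4 CPM in 3P10. Every IgG1 library was below every NTB and every 3P10 library, against 6.38% and 2.45% of all genes whose groups did not overlap in those comparisons. The log2 fold change was -0.62, SE 0.11, adjusted p = 0.00491 for IgG1 against NTB, and that call was kept under all 18 alternatives run for it. Mrpl16 (-0.29, adjusted p = 0.119) and Mrps22 (-0.41, adjusted p = 0.129) also separated without being called. For 3P10 against IgG1 Mrpl19 gave 0.46, SE 0.11, adjusted p = 0.0919. In the annotation Mrpl19 overlaps exons of Gcfc2 on the other strand, which gave 0.21, adjusted p = 0.546 for IgG1 against NTB, and the strand setting of the counting is not given.

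For 3P10 against IgG1 in muscle edgeR called 0 of 77, against 0.211% of all genes, 0.0903% higher, with 1 at an unadjusted p under 0.05 and 1 called by DESeq2. For 3P10 against NTB it called 0, against 0% of all genes, with 0 at an unadjusted p under 0.05 and 0 by DESeq2, and no groups separated, against 1.53% of all genes. The medians were 0.04 and -0.02.

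Muscle libraries fell apart by the number in their titles more than by group. The 4 libraries numbered 14, 15, 16 and 23 were IgG1 replicates 2 and 4, 3P10 replicate 2 and the third NTB library. They held 3805 to 5142 CPM of the family, and the 11 numbered 12 or lower held 2303 to 2994 CPM. For 42 of 77 genes all 4 lay above all 11, against 13.2% of genes tested. In the same 4 libraries, cytosolic ribosomal protein genes summed to 22944 to 26071 CPM, against 8858 to 11567, and complex I genes to 8399 to 15384 CPM, against 5314 to 7845. Skeletal muscle markers also split without overlap, at 309647 to 447376 CPM against 232436 to 305155. What the numbers stand for is not stated, and their part in the result was not tested. White fat carries the same numbers, and there NTB replicate 3 and 3P10 replicate 2 were the lowest of their groups.

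Among the 11 muscle libraries numbered 12 or lower, 3 were IgG1, 4 NTB and 4 3P10. There 8 genes were called lower in IgG1 than in NTB, beside 6.52% of all genes called in either direction. The median was -0.17, with 14 of 77 above 0. The 8 genes were Mrpl19 at -0.59, Mrpl12 at -0.55, Mrpl48 at -0.53, Mrpl46 at -0.52, Mrpl28 at -0.38, Mrps14 and Mrps9 at -0.35, and Mrpl49 at -0.34. Only Mrpl19 was called with all muscle libraries. Mrpl12 stood at 145, 137 and 113 CPM in the 3 IgG1 libraries, at 208, 182, 195 and 183 CPM in the 4 NTB libraries and at 188, 175, 177 and 182 CPM in the 4 3P10 libraries. With all libraries its log2 fold change was -0.40, adjusted p = 0.329. For 3P10 against IgG1 the median within the 11 was 0.18, with 66 of 77 above 0 and 0 called, against 0.134% of all genes.

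**Figure D5:**
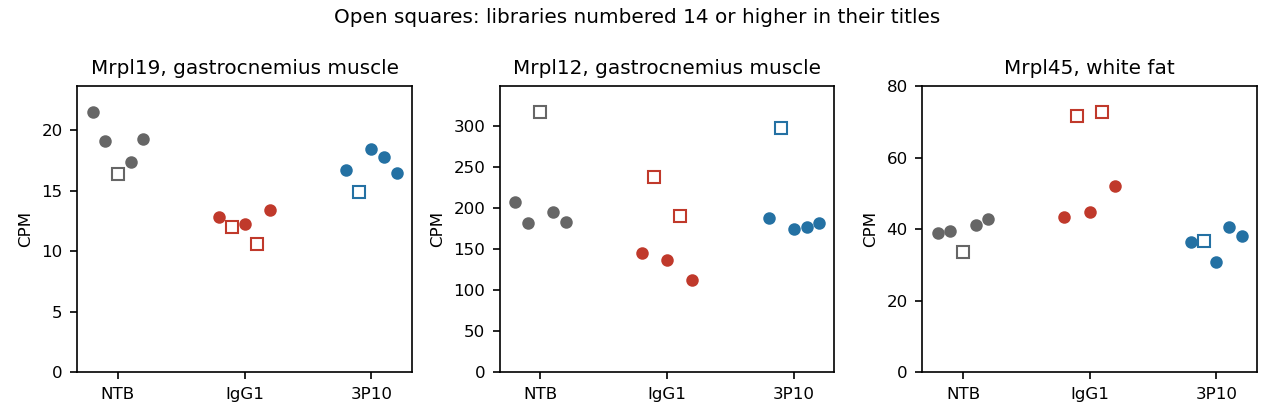
Level, in CPM, of Mrpl19 and Mrpl12 in muscle and of Mrpl45 in white fat in each library by group; open squares are libraries numbered 14 or higher. Mrpl19 is lowest in all 5 IgG1 libraries, among the filled points Mrpl12 in IgG1 (113 to 145 CPM) lies below NTB, and the highest Mrpl45 values are the open IgG1 squares.

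An interaction term in a joint fit asked if white fat and muscle differed in the effect of IgG1 against NTB. It was called for 3 of 77 genes, against 1.11% of all genes, 0.644% higher. The difference, white fat minus muscle on the log2 scale, was 0.995, SE 0.23, adjusted p = 0.0266 for Mrpl19, 0.91, SE 0.19, adjusted p = 0.0205 for Mrpl45 and 0.63, SE 0.15, adjusted p = 0.0375 for Mrpl3. Mrpl19 in white fat stood at 19.1, 34.8, 16.6, 38.8 and 28.4 CPM in IgG1 and at 19.8 to 23.3 CPM in NTB, and Mrpl45 in muscle at 54.0, 47.3, 38.0, 41.8 and 34.9 CPM in IgG1 and at 51.0 to 62.0 CPM in NTB. For 3P10 against IgG1 the interaction was called for Mrpl45 alone, at -0.90, SE 0.19, adjusted p = 0.0415, against 0.208% of all genes. Without white fat IgG1 replicates 2 and 4, 0 of 77 were called in either interaction, and 0 with the title number as a replicate block. Both tissues carry the same title numbers, and if these mark the same mice, the fit without the block treats libraries of 1 mouse as independent.

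Tissue levels were compared between white fat and muscle of NTB mice, which share a kit and a table. With TMM scaling over both tissues, 55 of 77 genes were lower in white fat and 4 higher, against 71.7% of all genes called, 38.7% higher and 33% lower. The median was -0.78 beside 0.10 over all genes. This direction depended on the scaling. TMM factors were 0.580 to 0.820 in muscle and 1.26 to 1.55 in white fat. With library totals alone, 25 genes were higher and 9 lower, against 79.7% of all genes called, 66.3% higher and 13.4% lower. The median was 0.22 beside 1.07 over all genes. Relative to the median of all genes the family lay lower in white fat. A change of scaling moves all genes by about the same amount, so the second scaling cannot check this.

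Of the family, 13 genes kept their direction and call under both scalings and 7 were called in opposite directions. The shares over all genes for these counts are not given here, so they are not read as a result about the family. The 9 lower under both were Mrpl1, Mrpl14, Mrpl15, Mrpl23, Mrpl42, Mrpl45, Mrpl53, Mrps23 and Mrps28, and the 4 higher were Mrps6, Mrpl10, Mrpl20 and Mrps2. Over the 17 alternatives run, Mrpl10 lost its call in 10 (adjusted p up to 0.114) and Mrpl20 in 7 (up to 0.0898), and Mrps6 and Mrps2 in none. Mrpl42 averaged 72.2 ± 9.16 CPM in white fat and 334 ± 137 CPM in muscle on the joint TMM scale, and 103 ± 11.3 and 237 ± 59.3 CPM by library totals (n = 5 each), log2 fold changes -2.21 and -1.20. Mrps23, a small-subunit protein, averaged 43.5 ± 5.93 and 143 ± 13.1 CPM on the joint scale, log2 fold change -1.71, SE 0.19, adjusted p = 6.89e-09, and -0.74, adjusted p = 0.000463 by totals. Mrps6 ran the other way, at 82.8 ± 7.32 CPM in white fat and 14.9 ± 6.80 CPM in muscle, log2 fold change 2.48, SE 0.32, adjusted p = 1.02e-07, and 3.49 by totals. Slc5a3, with which it shares exons, differed by 4.59. The other large differences, on the TMM scale and then by totals, were Mrpl23 at -1.99 and -0.97, Mrpl14 at -1.87 and -0.82, Mrps28 at -1.78 and -0.75, and Mrpl15 at -1.70 and -0.70. Among the higher genes Mrpl20 gave 0.66 and 1.70, Mrps2 0.48 and 1.44, and Mrpl10 0.33 and 1.32.

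Other genes of mitochondrial translation were taken from lists and read beside the family. None of the 6 mitochondrial ribosome genes with other symbols (Dap3, Gadd45gip1, Ptcd3, Chchd1, Aurkaip1 and Ict1) was called by edgeR in the treatment comparisons, with 0 to 2 at an unadjusted p under 0.05 in each. In 3P10 against IgG1 in brown fat, 3 of 13 translation factors were higher and none lower. Lrpprc and Slirp, which form a complex that stabilises mitochondrial messenger RNAs, rose by 0.75, adjusted p = 0.00135 and 0.82, adjusted p = 0.00184, and the initiation factor Mtif2 by 0.26, adjusted p = 0.0458. Lrpprc stood at 448 to 642 CPM in IgG1, 675 to 1136 CPM in 3P10 and 516 to 845 CPM in NTB, so IgG1 and 3P10 did not overlap. Of 22 assembly factors tested, Ddx28 and Ngrn were higher by 0.51 and 0.41 and Mpv17l2 was lower by a log2 fold change of -0.63, after 0.64 in IgG1 against NTB. Of 14 mitochondrial tRNA synthetases tested, Lars2 was higher by 0.60, and of 7 regulators of mitochondrial biogenesis none was called, with 1 at an unadjusted p under 0.05.

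In white fat the assembly factor Malsu1 was called in both comparisons, at 0.74, adjusted p = 0.0180 for IgG1 against NTB and -0.77, adjusted p = 0.0215 for 3P10 against IgG1 (of 24 in that list, 1 and 2 were called). The asparaginyl synthetase Nars2 gave 0.54 and -0.53, both called. The synthetases Iars2 and Fars2, the assembly factor Mtg2 and the mitochondrial RNA polymerase Polrmt were lower in 3P10 than in IgG1, at -0.56, -0.70, -0.66 and -0.63, and the mitochondrial DNA polymerase Polg was higher in IgG1 than in NTB, at 0.28. In muscle Lrpprc fell in IgG1 against NTB, at -0.52, SE 0.13, adjusted p = 0.0296, as 1 of 13 translation factors, and the regulator Myc rose by 1.17, adjusted p = 0.0342, as 1 of 9.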

How the data were processed

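The authors deposited raw counts per gene symbol for 47 libraries. Per the labels' protocols, brown fat libraries were made with a QuantSeq 3′ kit with molecular identifiers, and white fat and muscle libraries with the directional TailorMix kit. Whether reads were collapsed by identifier and the strand setting are not given in the sources used here. Per the submitters' processing notes, the authors used Trim Galore, STAR 2.6.0a, mm9, featureCounts 1.6.2 and edgeR 3.22.3.

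Groups follow the tissue and treatment in the labels. Each tissue was fitted apart with edgeR 4.0.16 in R 4.3.3, with 3 groups in 1 quasi-likelihood model, TMM factors and filterByExpr (minimum count 10, minimum total 15). That left 8711 genes in brown fat, 14402 in white fat, 13283 in muscle and 14898 in the joint fit of white fat and muscle used for interactions. Tests were 2-sided, and p was adjusted by Benjamini-Hochberg over all genes tested in a comparison, with calls under 0.05. A count of 0 allows 3 counts, for counting error only: 0.0895 to 0.121 CPM over muscle libraries, 0.0372 to 0.161 over white fat and 1.22 to 3.76 over brown fat. The fits were tested on simulated data.

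The alternatives were DESeq2 1.42.0, RLE factors, no filter on counts, at least 1 CPM in 5 libraries, library totals without factors, the compared groups alone, a replicate block, a skeletal muscle score as a term in brown fat, libraries numbered 12 or lower, white fat without IgG1 replicates 2 and 4, and each library left out in turn. The library totals, and the library subsets in the joint fit, were added after seeing the data. The genes, lists and tests were chosen with earlier results of these data known. Named were all called genes of a comparison, or the 6 largest in each direction where over 12 were called, a panel with known roles, the highest and lowest levels, and up to 3 called genes of each list. Promoters come from RefSeq, and exon overlaps and exon lengths from GENCODE, all on GRCm38 and matched by symbol. Of the 77 genes, 68 had a promoter entry.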

Additional observations from a re-analysis of the deposited data

Results flagged for a closer look

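The summed level of the family drew attention where 1 library stood far from the rest of its group: brown fat 3P10 replicate 3 at 7826 CPM (next 7068), muscle 3P10 replicate 2 at 4772 CPM (next 2944) and muscle NTB replicate 3 at 5142 CPM (next 2994). Such gaps were found in 3 of 66 groups of values tested, all 3 of them summed levels. The groups without a summed level held single genes of the family, which are part of those sums and share libraries. Chance gives about 1 in 20 for a single group, and the 3 of 66 cannot be read against that rate.

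A difference between white fat and muscle in the effect of IgG1 against NTB was found by the interaction test for Mrpl45 (0.91), Mrpl19 (0.995) and Mrpl3 (0.63), and in the effect of 3P10 against IgG1 for Mrpl45 (-0.90). All 4 were lost with the title number as a replicate block, and also without white fat IgG1 replicates 2 and 4. In this pair the thermogenic, keratinocyte and mammary epithelium lists summed high, and the fibroblast, adipocyte and macrophage lists low. The mammary epithelium list was high through Krt8, Krt18 and Epcam, with Csn2 at 0 CPM on average in white fat IgG1. The part of cell types in the result was not tested.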

How the results depend on the processing

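Counts are of family genes called, with the value as reported in brackets. Each called family gene given with its fold for a comparison of all libraries kept its sign there under the alternatives run. Genes outside the family, and the fit of muscle libraries numbered 12 or lower, were not followed under alternatives. The median fold of the family did not: for white fat against muscle in NTB it went from -0.78 to 0.22 with library totals, with 7 genes called in opposite directions. For white fat IgG1 against NTB it went from 0.31 to -0.04 with numbers 12 or lower and to -0.00 without IgG1 replicates 2 and 4, and for muscle 3P10 against NTB from -0.02 to 0.01 with numbers 12 or lower. With 1 library left out it ran from -0.21 to 0.10 (muscle IgG1 against NTB), -0.11 to 0.19 (muscle 3P10 against IgG1), -0.20 to 0.20 (muscle 3P10 against NTB) and -0.12 to 0.01 (white fat 3P10 against NTB). In brown fat, IgG1 against NTB (2) gave 5 with DESeq2, 0 with the compared groups alone, 1 with library totals and 1 with a muscle score, and 3P10 against IgG1 (13) gave 10 to 15 when 1 library was left out. In white fat, IgG1 against NTB (4) gave 10 with DESeq2, 2 with no filter, 1 with the compared groups alone and 1 with library totals, and 0 both with numbers 12 or lower and without IgG1 replicates 2 and 4. 3P10 against IgG1 (4) gave 14, 1, 0, 1, 0 and 0 in the same order. In muscle, IgG1 against NTB (1) gave 2 with DESeq2 and 8 with numbers 12 or lower, and 3P10 against IgG1 (0) gave 1 with DESeq2. The interaction for IgG1 against NTB (3) gave 5 with DESeq2, 1 with library totals, 0 with numbers 12 or lower and 0 without replicates 2 and 4 of white fat IgG1. That for 3P10 against IgG1 (1) gave 4 with DESeq2 and 0 with no filter, library totals or either set of libraries left out. White fat against muscle in NTB (59) gave 34 with library totals. With 1 library left out, the ranges were 0 to 3 (brown fat IgG1 against NTB), 2 to 11 (brown fat 3P10 against NTB), 0 to 24 (white fat IgG1 against NTB), 0 to 36 (white fat 3P10 against IgG1), 1 to 2 (muscle IgG1 against NTB), 0 to 1 (muscle 3P10 against IgG1), 0 to 10 and 0 to 8 (interactions) and 47 to 61 (NTB tissues). The cause of these changes was not tested. Samples with the same replicate number correlated from -0.67 to 0.64 in muscle and from -0.21 to 0.55 in white fat. In brown fat they correlated from -0.15 to 0.08. Muscle 3P10 against IgG1 gave 0.41, 0.64, 0.59, -0.39 and 0.24 for replicates 1 to 5. The labels do not say that replicate numbers pair the groups, and the main fits used no pairing. Bracket numbers run across the groups, and a pairing of groups by these was not tested. White fat and muscle libraries with the same bracket number correlated from -0.19 to 0.23, over 0.1 in 8 of 15; whether they came from the same animals is not stated. With the replicate block, brown fat gave 0 (IgG1 against NTB), 11 and 4 (3P10 against NTB), white fat 3 and 2, the interactions 0 and 0, and no other count moved by over 1.5 times. In brown fat, 8 of the 13 calls for 3P10 against IgG1 (Mrpl36, Mrpl38, Mrpl39, Mrpl53, Mrps6, Mrps18a, Mrps22 and Mrps34) were kept under all 19 alternatives, and against NTB Mrpl3 and Mrpl36 under all 20. Depth limits brown fat most, where Mrpl23, Mrps18b and Mrps36 were too low to test.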
